A study of Homo sapiens with 3 samples.

Results

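The RNAs described here are the long intergenic noncoding RNAs with a LINC number and the antisense RNAs named after a gene on the opposite strand (symbols ending in -AS and a digit). They were measured by RNA sequencing in OCI-AML2 R50, a line labelled as acute myeloid leukaemia (AML) and derived by name from the established line OCI-AML2. The groups compared were cells treated with romidepsin for 18 h (2 libraries) and control cells (1 library). By the labels, the cells were grown in MEMα medium with 15% FBS and 50 µM Ara-C (cytarabine, a nucleoside analogue used against AML), and this growth condition is given for the control as well as for the romidepsin libraries. All results thus concern 1 line held in Ara-C. The romidepsin dose, and whether the 2 treated libraries came from separate cultures, is not stated by the labels. The p-values therefore measure only how far these libraries spread, and that spread may be technical.

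Members were chosen by symbol and level: a LINC or antisense symbol with its own row, whose summed FPKM (fragments scaled to transcript length and to the mapped fragments of a library) reached 1 in at least 1 of the 3 libraries. Of 1810 such symbols, 269 did so, 79 of them LINC and 190 antisense, among 25247 symbols in all. A further 986 were listed at 0 in all 3 libraries and 555 lay above 0 but under 1 FPKM throughout. The rule used the levels in all 3 libraries, the treated ones included. The 46 members under 1 FPKM in the control entered only because a romidepsin library was higher, so that library had to be higher than the control, and they are given as values with no test. The 223 members at 1 FPKM or more in the control belonged to the set whatever romidepsin did, and the test is read for these alone. Just inside the threshold, by their highest library, lay LINC01356, DICER1-AS1 and RNF144A-AS1, each at 1.01 FPKM, and just outside it lay CRYM-AS1 at 0.995, PPP3CB-AS1 at 0.989 and RPL34-AS1 at 0.984 FPKM.

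Long noncoding RNAs are transcribed by RNA polymerase II and often spliced and polyadenylated like mRNAs, but most do not code for a protein and many are kept at low levels. Some act in trans, as decoys for microRNAs or RNA-binding proteins, some act on chromatin or transcription near their own site, and for most no function is known. An antisense RNA may run across the body of its sense gene or start from the same promoter region and run away from it; the second kind is called a divergent transcript. Romidepsin inhibits class I histone deacetylases, enzymes that remove acetyl groups from histones and other proteins, and such inhibitors are used against T-cell lymphoma and have been studied in AML.

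The label noncoding does not hold for every member in RefSeq. There, 268 of the 269 symbols matched an entry, 71 of them under a newer symbol, and 254 were annotated as lncRNA. Of the others, 11 matched a protein-coding entry, among them LINC00493 (SMIM26), LINC00998 (SMIM30), LINC00116 (MTLN), LINC01420 (NBDY) and LINC00094 (BRD3OS). For 2 of the 11, TNRC6C-AS1 (TMC6) and UBXN10-AS1 (PLA2G2C), the entry is that of another coding gene that lists the symbol as a synonym, and these matches are doubtful. Another 35 now carry a symbol ending in -DT, for divergent transcript, and GENCODE 29 places 31 of these 35 head to head with their sense gene. No member carried a HOX symbol.

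The 3 libraries held similar totals of these RNAs. Their summed level was 1471 and 1494 FPKM with romidepsin, against 1675 FPKM in the control, or 0.283%, 0.288% and 0.273% of the summed FPKM of all named genes. The 10 most abundant members held 36.6% and 36.9% of that sum with romidepsin and 36.7% in the control. Most members were scarce: 195 averaged under 5 FPKM and 31 averaged 10 FPKM or more. Low values within a preset window, taken to stand for 1 fragment, correspond to about 20200000 and 20800000 fragments in the romidepsin libraries and 17600000 in the control. The window bounds these depths, so they and the fragment numbers that follow are rough. At that depth the median member at 1 FPKM or more in the control rested on about 71.6 fragments in the control library, and 135 of the 214 with a transcript length rested on fewer than 100.

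Markers fixed for the check of the cell type fitted the label. All 10 AML markers reached 1 FPKM, with a summed level of 3835 and 3783 FPKM with romidepsin against 6139 FPKM in the control. None of the 4 T-cell or 5 epithelial markers reached 1 FPKM. Of the 4 B-cell, 4 megakaryocyte and 4 fibroblast markers, 2 each reached 1 FPKM, and the fibroblast sum over the 3 with a row was 3.79 and 3.79 FPKM with romidepsin against 0.0525 FPKM in the control. The part of these shifts in the values below was not tested, and in bulk RNA fewer cells of a type and less RNA per cell cannot be told apart.

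After 18 h of romidepsin, LINC and antisense RNAs that the control already expressed were called lower more often than higher. Of the 223 at 1 FPKM or more in the control, 35 rose (15.7%), 98 fell (43.9%) and 90 were not called, by limma on log2(FPKM + 1) with Benjamini-Hochberg adjustment over all 11708 genes tested. Among all 10838 genes at that level in the control, 75.6% were called, 30.5% higher and 45.2% lower. Without matching for level, the share of members that fell was near this background and the share that rose was smaller. The members were the scarcer, with a median of 3.16 FPKM in the control against 14.1 FPKM for all these genes. The median difference of the 223 was -0.19 on the log2 scale, against -0.10 for all genes at that level. With all libraries scaled to equal sums, which moved the median of all genes tested to 0.16 against -0.05 as deposited, 58 of 208 members were called higher and 71 lower. The rises then made up 44.96% of the members called and 65.2% of all genes called. These shares are of unlike sets. That of all genes includes genes under 1 FPKM in the control, which were tested only because a romidepsin library was higher.

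Both kinds of symbol had more falls than rises, as had all genes at 1 FPKM or more in the control. Of the 62 LINC RNAs tested, 13 rose, 31 fell and 18 were not called, with a median difference of -0.21. Of the 161 antisense RNAs, 22 rose, 67 fell and 72 were not called, with a median of -0.17. Of the 30 tested members now named as divergent transcripts, 9 were called higher, 9 lower and 12 not called, with a median of 0.05. Among all genes at that level 30.5% were called higher and 45.2% lower. The shares were 21.0% and 50% for LINC RNAs and 13.7% and 41.6% for antisense RNAs. The falls of both kinds were thus near this background, which is not matched for level. Beside genes of the same control level, members fell more often from 1 to 20 FPKM, as set out below. No difference between these groups was tested. Counted without a test, both romidepsin libraries lay under the control for 128 of the 223 and over it for 68, while all genes at that level did so in 55.5% and 39.6% of cases.

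**Figure D1:**
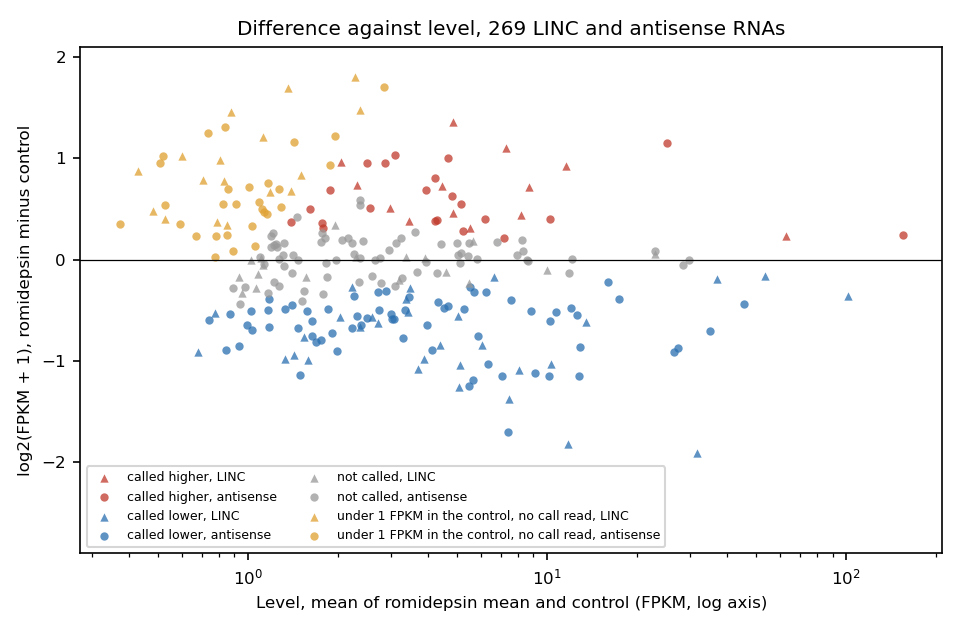
Difference of each of the 269 RNAs between romidepsin and control on the log2(FPKM + 1) scale (vertical axis) against its level in FPKM on a log axis, with triangles for LINC RNAs and circles for antisense RNAs. The 98 called lower reach -1.91 at LINC00926, the 35 called higher reach 1.36 at LINC01485, and the 46 under 1 FPKM in the control, for which no call is read, lie above 0.

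The share called depends on the level, so members were set beside all genes of the same control level. At 1 to 2 FPKM, 11 of 67 members rose and 14 fell, against 44.7% of all genes called higher and 12% lower. At 2 to 5 FPKM, 15 of 79 rose and 36 fell, against 43.8% and 23.1% of all genes. At 5 to 20 FPKM, 7 of 63 rose and 40 fell, against 33.6% and 39.1%. In each of these 3 ranges the members' median difference was below that of all genes: -0.00 against 0.22, -0.22 against 0.14 and -0.46 against -0.04. At 20 FPKM or more, 2 of 14 rose and 8 fell, against 19.5% and 65.9% of all genes, and there the members' median, -0.17, lay above the -0.29 of all genes. Beside this stands a wider spread of the members between the 2 romidepsin libraries: the SD of the pair on the log2 scale was 0.31, 0.18, 0.17 and 0.07 in the 4 ranges, against 0.18, 0.14, 0.10 and 0.07 for all genes. The part of that spread in the smaller share of rises was not tested.

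**Figure D2:**
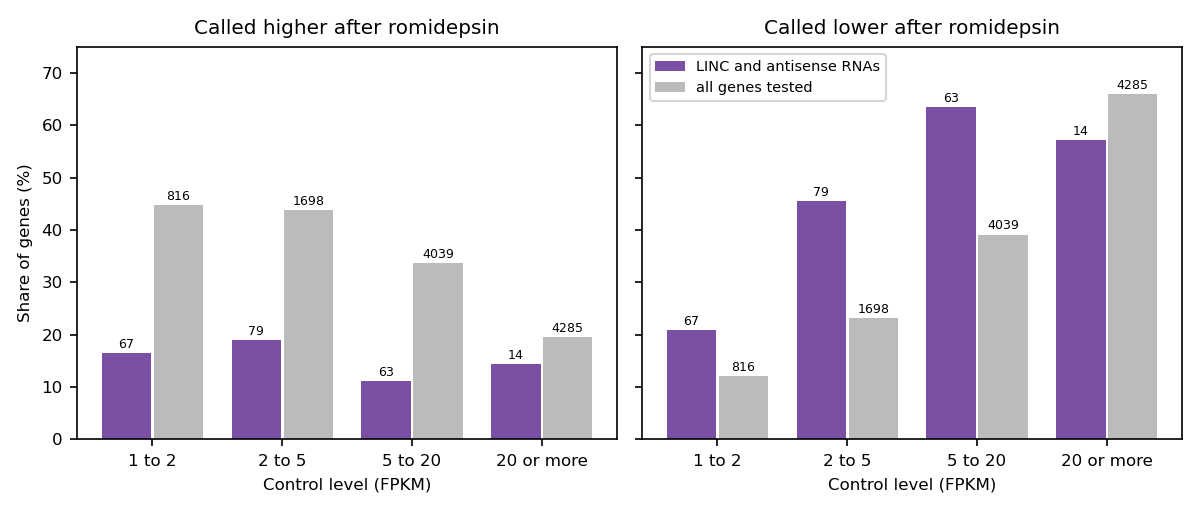
Share of the LINC and antisense RNAs (purple) and of all genes tested (grey) called higher (left panel) and lower (right panel) after romidepsin, by control level in FPKM, with the number of genes printed over each bar. From 1 to 20 FPKM the purple bars are shorter than the grey ones on the left and taller on the right; at 20 FPKM or more, where there are 14 members, the purple bar is the shorter in both panels.

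The most abundant member was PCNA-AS1, antisense to the gene of the replication clamp PCNA, with 163 and 172 FPKM with romidepsin against 141 FPKM in the control (difference 0.25 ± 0.04 SE, adjusted p = 0.00108 by limma). PCNA itself had 300.4 and 306 FPKM with romidepsin against 333 FPKM in the control (adjusted p = 0.00597), so the antisense RNA rose and the sense gene fell; with either other scaling both are called higher. The library's strand setting is not given in the sources used here, and where antisense and sense exons overlap, their reads cannot be told apart without it. LINC00657, better known as NORAD, is an abundant cytoplasmic RNA that binds Pumilio proteins and guards chromosome stability. It had 67.9 and 68.7 FPKM with romidepsin against 57.8 FPKM in the control and rose by a small step (0.24 ± 0.04 SE, adjusted p = 0.000763).

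OIP5-AS1, also called Cyrano, carries a near-perfect site for the microRNA miR-7 and promotes its destruction. It had 38.4 and 38.5 FPKM with romidepsin against 52.4 FPKM in the control and fell (-0.44 ± 0.04 SE, adjusted p = 4.04e-05 by limma). LINC00152 (CYTOR), a cytoplasmic RNA raised in many tumours, had 36.7 and 32.5 FPKM with romidepsin against 39.5 FPKM in the control; its fall (-0.19 ± 0.07 SE, adjusted p = 0.0401) turns to 0.05 with equal sums. FGD5-AS1, with 28.3 and 27.4 FPKM with romidepsin against 28.9 FPKM in the control, and OTUD6B-AS1, with 30.1 and 29.2 FPKM with romidepsin against 29.7 FPKM in the control, were not called.

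A list of characterised lncRNAs, chosen with earlier results of these data known, held 13 members. Of these, 3 rose, 8 fell and 2 were not called, with a median difference of -0.44, beside 30.5% of all genes at 1 FPKM or more in the control called higher and 45.2% lower; with equal sums 5 were called higher and 7 lower, and with quantile normalization 2 higher and 7 lower. EPB41L4A-AS1, the host of the small nucleolar RNA SNORA13, fell to 19.1 and 18.99 FPKM with romidepsin, against 35.8 FPKM in the control (-0.88 ± 0.05 SE, adjusted p = 2.70e-06 by limma). PSMB8-AS1, which lies by the immunoproteasome gene PSMB8 in the MHC region and was summed over 8 rows, fell to 18.9 and 17.3 FPKM with romidepsin against 34.9 FPKM in the control. TTN-AS1 fell to 4.03 and 3.62 FPKM with romidepsin against 8.87 FPKM in the control. These 3 were the list's largest falls, so their distance from the control follows from the choice. The list's other falls were smaller: TMPO-AS1, MCM3AP-AS1 and SBF2-AS1 fell by 0.48, 0.57 and 0.48 on the log2 scale. LINC00467 rose to 2.49 and 3.83 FPKM with romidepsin against 1.46 FPKM in the control, with the 2 treated libraries further apart than for most members, and its call is lost with quantile normalization (0.44) and with no filter on low values. THUMPD3-AS1, with 8.34 and 8.89 FPKM with romidepsin against 8.70 FPKM in the control, was not called.

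LINC symbols that turned out to encode small proteins went both ways. Of the 6 members on that list, chosen with earlier results known, 3 rose and 3 fell. With equal sums 3 were called higher and 1 lower, and with quantile normalization 2 higher and 1 lower. All 11 members with a protein-coding RefSeq entry, doubtful matches included, gave 3 higher, 7 lower and 1 not called, with a median of -0.36. Among all genes at 1 FPKM or more in the control, 30.5% were called higher and 45.2% lower. LINC00493, now SMIM26, a small mitochondrial protein, had 86.0 and 91.0 FPKM with romidepsin against 114 FPKM in the control and fell (-0.36 ± 0.04 SE, adjusted p = 0.000196 by limma); this call is lost with equal sums (-0.12) and with quantile normalization (-0.09). LINC00116, now MTLN (mitoregulin), a protein of the inner mitochondrial membrane, fell further, to 5.998 and 6.86 FPKM with romidepsin against 14.1 FPKM in the control (-1.03 ± 0.08 SE, adjusted p = 2.09e-05). LINC00998, now SMIM30, had 49.7 and 51.3 FPKM with romidepsin against 56.5 FPKM in the control, a fall of 0.16 on the log2 scale that turned to 0.08 with equal sums and 0.03 with quantile normalization.

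Among the rises of this group was NBDY, listed as LINC01420, a small protein that binds the mRNA decapping complex. It had 12.6 and 9.57 FPKM with romidepsin against 6.32 FPKM in the control (0.71 ± 0.13 SE, adjusted p = 0.0019 by limma), the sum of 3 rows. The call of LINC01420 is lost with no filter on low values. LINC00094, now BRD3OS, next to the bromodomain gene BRD3, rose to 5.88 and 5.68 FPKM with romidepsin against 3.91 FPKM in the control, and BRD3 itself fell to 13.0 and 12.7 FPKM with romidepsin against 14.9 FPKM in the control. LINC00467, given above, also stands on this list and rose by about as much as NBDY (0.74 ± 0.18 SE). A further pair of LINC or antisense symbols with a protein-coding RefSeq entry also fell: NCBP2-AS2 to 26.1 and 26.7 FPKM with romidepsin against 43.8 FPKM in the control, and TOPORS-AS1 (SMIM27) to 6.64 and 8.59 FPKM with romidepsin against 17.9 FPKM in the control. LINC00959, now C10orf143, fell to 1.74 and 2.08 FPKM with romidepsin against 3.29 FPKM in the control.

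On the log2(FPKM + 1) scale, 3 of the 223 were at least 2-fold higher in both romidepsin libraries and 13 were at least 2-fold lower, against 4.76% and 3.33% of all genes at that level; no test goes with this count. It depends on the scale: with equal sums 8 were 2-fold higher and 6 lower, with a pseudocount of 0.1 the counts were 8 and 35, and without one romidepsin library 5 to 6 and 17 to 19.

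The largest rise was that of LINC01485, which had 7.33 and 7.45 FPKM with romidepsin against 2.28 FPKM in the control (1.36 ± 0.07 SE, adjusted p = 3.20e-06 by limma). Its nearest protein-coding gene in GENCODE 29, CPEB4, which controls the poly(A) tails of mRNAs, rose too, to 9.00 and 9.28 FPKM with romidepsin against 2.88 FPKM in the control. LINC00888, now SNHG33 and thus named as a host of small nucleolar RNAs, rose to 10.3 and 10.4 FPKM with romidepsin against 4.26 FPKM in the control (1.11 ± 0.06 SE, adjusted p = 4.18e-06). IL10RB-AS1, now IL10RB-DT, is the divergent transcript of the interleukin 10 receptor chain IL10RB and the most abundant of the large rises. It had 32.3 and 38.04 FPKM with romidepsin against 15.2 FPKM in the control (1.15 ± 0.09 SE, adjusted p = 1.60e-05). These are the 3 members at least 2-fold higher in both romidepsin libraries, so their distance from the control follows from the choice.

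The other 9 members completed the 12 largest rises. GATA2-AS1, antisense to the haematopoietic transcription factor GATA2, had 3.61 and 3.62 FPKM with romidepsin against 1.37 FPKM in the control (0.96 ± 0.09 SE, adjusted p = 5.32e-05 by limma). LINC01412 had 15.2 and 15.9 FPKM with romidepsin against 7.69 FPKM in the control, while its nearest coding gene ZEB2, a zinc finger repressor, fell to 24.3 and 24.9 FPKM with romidepsin against 49.2 FPKM in the control. MMP25-AS1, opposite a gene for a membrane-bound matrix metalloproteinase of neutrophils, had 5.64 FPKM in both romidepsin libraries against 2.80 FPKM in the control. The other members were SRP14-AS1, ZFPM2-AS1, YTHDF3-AS1, LINC01569, LINC00339 and PSMD5-AS1, with differences of 0.9998, 1.04, 0.95, 0.96, 0.73 and 0.68 and adjusted p between 4.43e-05 and 0.000501. Of the sense genes of SRP14-AS1, YTHDF3-AS1 and PSMD5-AS1, none was called.

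The largest fall was that of LINC00926, which had 12.4 and 13.0 FPKM with romidepsin against 50.5 FPKM in the control, 3.98-fold lower (-1.91 ± 0.05 SE, adjusted p = 2.17e-07 by limma). It was the only one of the 10 most abundant members with a 2-fold change. LINC01122, held in 2 rows, fell to 4.48 and 4.75 FPKM with romidepsin against 18.8 FPKM in the control (-1.82 ± 0.07 SE, adjusted p = 6.94e-07). VPS9D1-AS1, also called MYU and described as a target of MYC in colon cancer cells, fell to 2.99 and 2.91 FPKM with romidepsin against 11.8 FPKM in the control (-1.70 ± 0.07 SE, adjusted p = 1.34e-06). Each of these 3 was about as low in one treated library as in the other, which ranking by the smaller difference favours.

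The next falls were LINC00539, at 4.17 and 3.25 FPKM with romidepsin against 11.2 FPKM in the control, and LINC00899, at 2.54 and 2.63 FPKM with romidepsin against 7.57 FPKM in the control. RNASEH1-AS1, now RNASEH1-DT, diverges from the gene of ribonuclease H1 and fell to 2.83 and 2.89 FPKM with romidepsin against 8.13 FPKM in the control. LCMT1-AS1 was the scarcest of the 12, at 0.489 and 0.637 FPKM with romidepsin against 2.43 FPKM in the control. The other 5, BZRAP1-AS1 (TSPOAP1-AS1), TPT1-AS1, PXN-AS1, BEAN1-AS1 and LINC01127, differed by -1.19, -1.15, -1.14, -1.12 and -1.08, and the adjusted p of these 9 falls lay between 6.04e-06 and 0.000156 by limma. TPT1-AS1, whose sense gene encodes the abundant translationally controlled tumour protein, was the most abundant of them, at 6.28 and 5.54 FPKM with romidepsin against 14.3 FPKM in the control. All 12 falls held with equal sums and with quantile normalization, and so did the 12 rises.

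**Figure D3:**
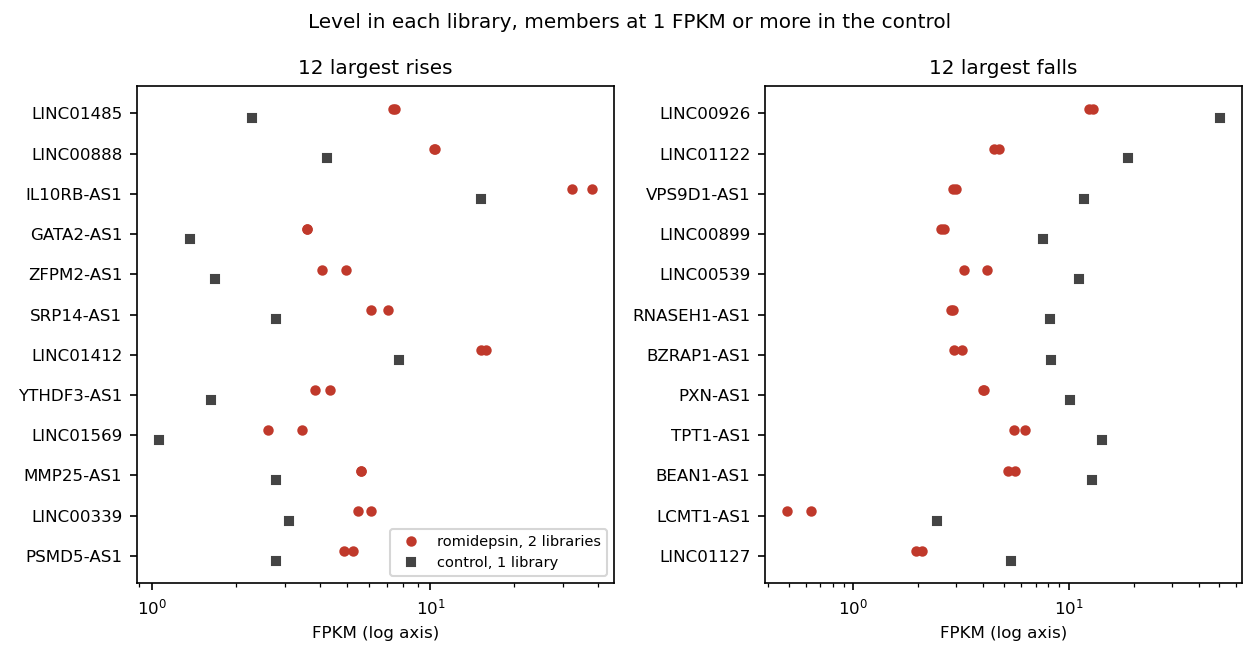
Level in FPKM, on a log axis, of the 12 members with the largest rises (left) and the 12 with the largest falls (right) among those at 1 FPKM or more in the control, with red circles for the 2 romidepsin libraries and a grey square for the control library. Genes were chosen by the smaller difference of the 2 romidepsin libraries from the control, so both circles lie away from the square. LINC00926, for example, is at 12.4 and 13.0 FPKM with romidepsin and at 50.5 FPKM in the control.

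The promoter windows of the 3 largest 2-fold rises and falls with a RefSeq window are printed to show how unlike each other they are in sequence. They run from 250 bases before to 50 after the annotated start, in RefSeq GRCh38.p14 and not in the build of the files, and are given 5′ to 3′ on the strand of the RNA. Capitals mark matches on either strand to 4 motifs. The GC box was searched as GGGCGG and the motif of the factor NF-Y as CCAAT. The E-box that MYC and MAX bind was searched as CACGTG and the core promoter element known as the TATA box as TATAAA. Matches of a motif may overlap one another.
LINC01485, chr5:173790893-173791192, minus strand: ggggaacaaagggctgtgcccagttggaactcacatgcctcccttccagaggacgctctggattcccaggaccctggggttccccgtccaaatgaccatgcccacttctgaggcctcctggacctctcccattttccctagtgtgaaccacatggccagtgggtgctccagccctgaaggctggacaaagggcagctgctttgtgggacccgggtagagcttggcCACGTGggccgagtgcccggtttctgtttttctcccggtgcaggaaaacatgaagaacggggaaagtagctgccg
LINC00888, chr3:183447358-183447657, plus strand: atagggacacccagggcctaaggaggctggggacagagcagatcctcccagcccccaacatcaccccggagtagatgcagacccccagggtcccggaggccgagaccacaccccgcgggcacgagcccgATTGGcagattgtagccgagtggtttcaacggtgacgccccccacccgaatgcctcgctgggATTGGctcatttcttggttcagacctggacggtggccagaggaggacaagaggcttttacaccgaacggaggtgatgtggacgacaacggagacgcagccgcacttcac
IL10RB-AS1, chr21:33266211-33266510, minus strand: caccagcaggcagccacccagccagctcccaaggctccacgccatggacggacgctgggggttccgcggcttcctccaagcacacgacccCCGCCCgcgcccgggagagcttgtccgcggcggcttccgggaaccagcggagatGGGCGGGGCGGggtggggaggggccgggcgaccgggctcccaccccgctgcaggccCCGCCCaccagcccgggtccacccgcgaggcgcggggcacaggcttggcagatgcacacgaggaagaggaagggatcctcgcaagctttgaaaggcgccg
LINC01122, chr2:58520503-58520802, plus strand: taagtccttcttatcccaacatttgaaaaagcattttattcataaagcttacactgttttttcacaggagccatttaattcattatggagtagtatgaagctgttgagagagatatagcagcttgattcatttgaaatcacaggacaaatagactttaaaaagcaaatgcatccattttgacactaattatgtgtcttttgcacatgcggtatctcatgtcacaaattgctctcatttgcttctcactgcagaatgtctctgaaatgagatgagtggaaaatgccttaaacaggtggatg
VPS9D1-AS1, chr16:89711606-89711905, plus strand: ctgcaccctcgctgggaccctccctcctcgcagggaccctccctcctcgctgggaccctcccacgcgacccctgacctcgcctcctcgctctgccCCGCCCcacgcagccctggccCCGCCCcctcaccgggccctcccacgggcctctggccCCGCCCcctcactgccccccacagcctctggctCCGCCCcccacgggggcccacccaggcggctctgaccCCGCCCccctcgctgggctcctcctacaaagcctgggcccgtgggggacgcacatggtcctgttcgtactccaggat
LINC00899, chr22:46044819-46045118, minus strand: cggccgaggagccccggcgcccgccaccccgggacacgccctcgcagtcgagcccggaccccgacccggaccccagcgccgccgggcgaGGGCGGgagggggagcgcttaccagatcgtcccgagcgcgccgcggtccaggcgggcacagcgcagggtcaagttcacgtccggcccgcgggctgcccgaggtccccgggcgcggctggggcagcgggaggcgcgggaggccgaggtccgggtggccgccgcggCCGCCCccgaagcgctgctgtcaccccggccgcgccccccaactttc
The windows of the 3 rises have little in common. That of IL10RB-AS1 is 74.0% G and C with 4 matches to GGGCGG, that of LINC00888 holds 2 matches to CCAAT, and that of LINC01485 holds 1 CACGTG. Among the falls, the window of VPS9D1-AS1 is 75.7% G and C with 5 matches to GGGCGG and that of LINC00899 is 81.0% with 2, whereas that of LINC01122 is 35.3% G and C and has no match to any of the 4.

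Across the 207 members with a window, a match to GGGCGG was found in 62.8%, to CCAAT in 39.1%, to CACGTG in 11.1% and to TATAAA in 5.31%. All 27305 RefSeq windows of the same length held them in 44.6%, 35.7%, 7.43% and 11.95%, and the 8409 windows of genes tested here in 70.5%, 37.0%, 10.5% and 5.27%. Of the 30 windows of members that rose and the 74 of members that fell, GGGCGG stood in 20 and 43, CCAAT in 13 and 28, CACGTG in 7 and 7, TATAAA in 2 and 5, and CGCG in 25 and 51; none of these differences was tested. CGCG stood in 71.5% of members' windows, TGANTCA (the AP-1 site) in 4.83% and TGACGTCA (the CRE) in 3.38%, against 80.1%, 4.46% and 3.41% of genes tested. These shares are descriptions; a match is not a bound site.

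Antisense RNAs were next set beside their sense genes. Of the 190, 177 have a sense gene with its own row, 10 a sense gene in a joined row and 3 none. GENCODE 29 places 78 head to head, with starts within 1000 bases whether or not the genes overlap. It places 103 more as overlapping the sense gene, and 9 were not placed. In 127 pairs both genes had 1 FPKM or more in the control, and the sense gene was the more abundant in all but 22, with a median ratio of 5.49 per length. Both members of a pair differed from the control in the same direction in 81 pairs (63.8%). Both sides of the pairs lean lower, with 53 antisense RNAs called lower and 16 higher, and 60 sense genes called lower and 36 higher, and all use the same control library, so part of this count comes without any link within a pair and no link is read from it. Across these 127 pairs Pearson's r between antisense and sense differences was 0.31, a description of pairs that share the same 3 libraries and, in part, the same reads.

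By arrangement, directions were the same in 45 of 65 overlapping pairs and in 34 of 57 head-to-head pairs, which can overlap as well. This difference was not tested. They were the same in 54 of 75 pairs with shared exon bases and in 25 of 47 pairs with none, with r of 0.37 and 0.20. Shared reads can give shared direction where strand is not kept, and their part was not tested. By the limma calls, 31 pairs were both lower, 6 both higher, 3 had the antisense RNA higher and the sense gene lower, and 12 the reverse. The balance depends on the scaling. With equal sums 14 pairs were both lower and 24 both higher, and with quantile normalization 37 and 7.

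**Figure D4:**
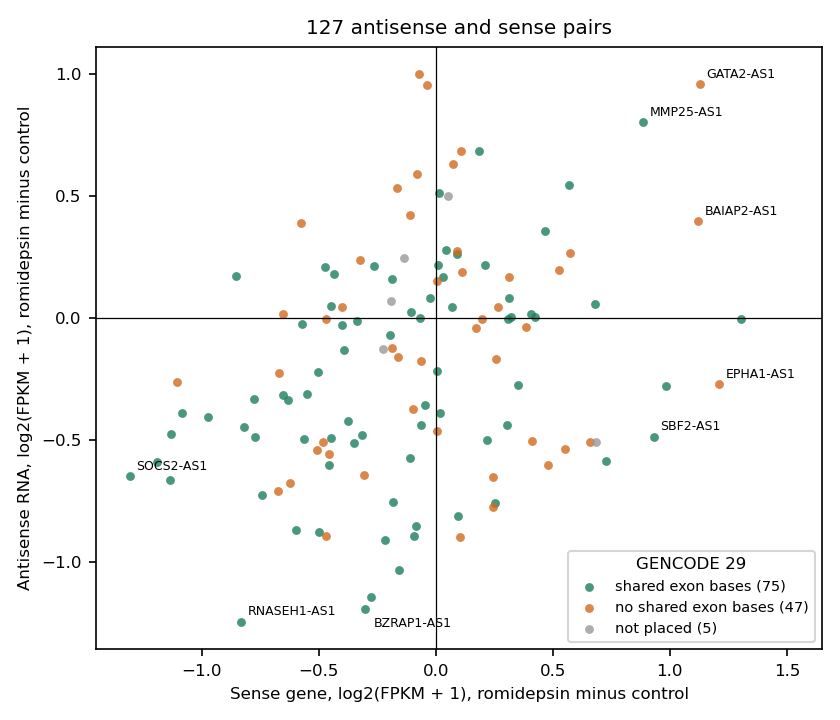
Difference of 127 antisense RNAs (vertical axis) and of their sense genes (horizontal axis) between romidepsin and control on the log2(FPKM + 1) scale, coloured by whether the pair shares exon bases in GENCODE 29. The 81 pairs with the same direction lie in the lower left and upper right parts; GATA2-AS1, MMP25-AS1 and BAIAP2-AS1 lie at the upper right, SOCS2-AS1 and RNASEH1-AS1 at the lower left, and EPHA1-AS1 and SBF2-AS1 at the lower right.

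The pairs both higher were those of A1BG, ASB16, BAIAP2, GATA2, MMP25 and ZBED5. GATA2 had 11.04 and 10.5 FPKM with romidepsin against 4.39 FPKM in the control, beside the rise of GATA2-AS1 given above, and the pair shares no exon bases in GENCODE 29. BAIAP2, an adaptor of actin regulation, had 6.84 and 7.20 FPKM with romidepsin against 2.69 FPKM in the control, and BAIAP2-AS1 12.1 and 11.4 FPKM with romidepsin against 8.65 FPKM in the control. MMP25 had 10.1 and 10.9 FPKM with romidepsin against 5.22 FPKM in the control, and that pair shares 1454 exon bases. These 3 pairs stayed both higher with equal sums and with quantile normalization, and the other 3 were lost with quantile normalization. Exon bases are shared in 4 of the 6 pairs, where reads of both genes cannot be told apart without strand.

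Among the 31 pairs both lower, RNASEH1 had 16.05 and 15.6 FPKM with romidepsin against 28.96 FPKM in the control, beside RNASEH1-AS1. NCBP2, a subunit of the nuclear cap-binding complex, had 63.4 and 65.3 FPKM with romidepsin against 103 FPKM in the control, beside NCBP2-AS2. SOCS2, a feedback inhibitor of cytokine signalling, had 10.1 and 9.73 FPKM with romidepsin against 26.0 FPKM in the control, and SOCS2-AS1, named here after its values were seen, 0.551 and 0.549 FPKM with romidepsin against 1.43 FPKM in the control. The sense genes of the other large antisense changes moved less: BZRAP1 had 2.65 and 2.60 FPKM with romidepsin against 3.47 FPKM in the control, and TOPORS 9.84 and 10.8 FPKM with romidepsin against 12.7 FPKM in the control. With equal sums 14 of the 31 pairs stayed both lower, and with quantile normalization 28 did. Exon bases are shared in 22 of the 31, those of RNASEH1 and SOCS2 among them but not that of NCBP2, so the same limit of shared reads applies.

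In 12 pairs the antisense RNA fell while the sense gene rose. Across the 127 pairs 53 antisense RNAs were called lower and 36 sense genes higher. Such pairs thus arise without any link within a pair, and no link is read from this count. EPHA1-AS1 had 4.73 and 5.11 FPKM with romidepsin against 6.13 FPKM in the control, while EPHA1, an ephrin receptor, had 11.01 and 10.9 FPKM with romidepsin against 4.16 FPKM in the control; the antisense call is lost with equal sums. SBF2-AS1 had 1.45 and 1.29 FPKM with romidepsin against 2.32 FPKM in the control, while SBF2 had 4.4 and 4.82 FPKM with romidepsin against 1.94 FPKM in the control. ENTPD1-AS1 had 2.18 and 2.25 FPKM with romidepsin against 3.82 FPKM in the control, while ENTPD1, the ectonucleotidase CD39, had 3.19 and 3.25 FPKM with romidepsin against 1.55 FPKM in the control. In each of these 3 the antisense RNA was the more abundant in the control and the sense gene the more abundant with romidepsin.

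FOXP4-AS1 had 7.62 and 6.66 FPKM with romidepsin against 10.5 FPKM in the control, while FOXP4, a forkhead transcription factor, had 14.6 and 14.9 FPKM with romidepsin against 8.96 FPKM in the control, the same exchange of order. CARD8-AS1 had 4.28 and 3.97 FPKM with romidepsin against 7.65 FPKM in the control, while CARD8, an inflammasome sensor, had 17.9 and 18.95 FPKM with romidepsin against 15.3 FPKM in the control. PRKCQ-AS1, USP2-AS1, TOLLIP-AS1 and MFI2-AS1 fell by 0.50, 0.60, 0.54 and 0.51 on the log2 scale, while PRKCQ, USP2, TOLLIP and MFI2 rose by 0.41, 0.48, 0.55 and 0.69. CEBPA-AS1, named after its values were seen, diverges from the myeloid transcription factor CEBPA. It had 2.63 and 3.09 FPKM with romidepsin against 5.05 FPKM in the control, while CEBPA had 265 and 262 FPKM with romidepsin against 223 FPKM in the control. TRIM52-AS1 and MORC2-AS1 complete the 12. Of the 12 pairs, 8 kept both calls with equal sums and 10 with quantile normalization.

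The reverse, an antisense RNA that rose and a sense gene that fell, was called for COX10, DHRS4 and PCNA. COX10-AS1 (COX10-DT) had 5.08 and 4.91 FPKM with romidepsin against 3.57 FPKM in the control, while COX10, an assembly factor of cytochrome c oxidase, had 11.1 and 10.3 FPKM with romidepsin against 16.4 FPKM in the control. With equal sums 1 of the 3 pairs, that of COX10, kept both calls, and with quantile normalization 0 did.

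For VPS9D1-AS1, PXN-AS1 and CDKN2B-AS1, which fell, the sense gene was under 1 FPKM in the control and is given as values. VPS9D1 had 2.59 and 2.84 FPKM with romidepsin against 0.959 FPKM in the control. PXN, which encodes the adhesion protein paxillin, had 3.28 and 3.11 FPKM with romidepsin against 0.497 FPKM in the control, beside 4.003 and 4.04 FPKM of PXN-AS1 with romidepsin against 10.1 FPKM in the control. CDKN2B-AS1 (ANRIL), an RNA of the INK4 locus that has been tied to Polycomb silencing and is named here after its values were seen, had 1.17 and 0.664 FPKM with romidepsin against 2.03 FPKM in the control (-0.67 ± 0.17 SE, adjusted p = 0.00892 by limma). Its call is lost with no filter on low values. CDKN2B, the inhibitor of CDK4 and CDK6, had 5.52 and 5.72 FPKM with romidepsin against 0.340 FPKM in the control.

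LINC RNAs are not named after a sense gene, and their nearest protein-coding gene in GENCODE 29 was taken in its place, at up to 1411 kb away for LINC00662. In 30 such pairs both genes had 1 FPKM or more in the control; the direction was the same in 21, a count to which the shared control and the lean toward falls also apply, with 3 pairs both higher, 11 both lower, 2 with the LINC RNA higher and its neighbour lower, and 3 the reverse. LINC01268 fell to 10.7 and 10.1 FPKM with romidepsin against 16.4 FPKM in the control, while its neighbour MARCKS, a substrate of protein kinase C, rose to 41.6 and 42.3 FPKM with romidepsin against 29.4 FPKM in the control. The neighbour of LINC00926, the transcription factor gene TCF12, had 13.7 and 14.4 FPKM with romidepsin against 16.2 FPKM in the control, a far smaller fall than that of the LINC RNA (log2 difference -0.20, adjusted p = 0.0135 by limma).

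The 46 members under 1 FPKM in the control are given as values only. Both romidepsin libraries reached 1 FPKM for 30 of them and 1 library did for 16, and 4 were listed at 0 in the control. Of the 46, 10 were at least 2-fold higher on the log2(FPKM + 1) scale in both romidepsin libraries, beside 40.7% of all 870 genes tested at that level, and nothing is read from either count.

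LINC01272, now PELATON, an RNA of monocytes and macrophages, had 2.64 and 2.56 FPKM with romidepsin against 0.114 FPKM in the control. Its nearest coding gene, CEBPB, a transcription factor of macrophage differentiation, rose to 75 and 72.3 FPKM with romidepsin against 34.8 FPKM in the control. LINC01426 lies next to RUNX1, a regulator of blood formation, and had 5.22 and 3.01 FPKM with romidepsin against 0.428 FPKM in the control; RUNX1 rose to 48.4 and 47.7 FPKM with romidepsin against 33.0 FPKM in the control. LINC01137, now LITATS1, described as induced by TGF-β, had 4.09 and 3.84 FPKM with romidepsin against 0.776 FPKM in the control.

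Of the antisense RNAs in this range, DGUOK-AS1 had 5.04 and 4.77 FPKM with romidepsin against 0.810 FPKM in the control, while DGUOK, the mitochondrial deoxyguanosine kinase, was not called, at 66.9 and 73.3 FPKM with romidepsin against 66.0 FPKM in the control. LLPH-AS1 had 3.32 and 2.94 FPKM with romidepsin against 0.769 FPKM in the control, and its sense gene LLPH, a nucleolar protein, was not called either, at 41.8 and 43.6 FPKM with romidepsin against 41.3 FPKM in the control. In both pairs the sense gene was far more abundant than the antisense RNA. TMC3-AS1 had 2.70 and 2.01 FPKM with romidepsin against 0.496 FPKM in the control, LINC00656 had 2.097 and 1.83 FPKM with romidepsin against 0.277 FPKM in the control, CFAP58-AS1 had 1.68 and 1.55 FPKM with romidepsin against 0.0562 FPKM in the control, TM4SF19-AS1 had 1.499 and 1.38 FPKM with romidepsin against 0.0270 FPKM in the control, and LINC01405 had 1.41 and 2.11 FPKM with romidepsin and was listed at 0 in the control.

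**Figure D5:**
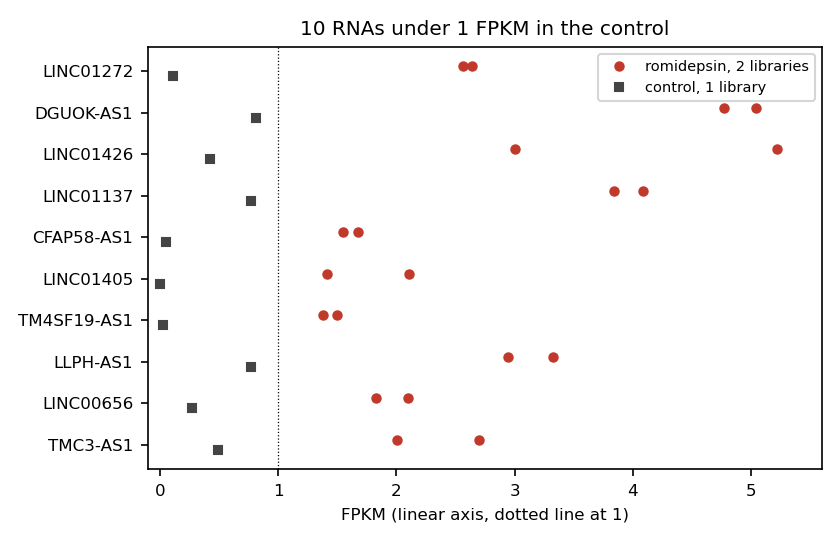
Level in FPKM, on a linear axis, of the 10 RNAs under 1 FPKM in the control with the largest smaller difference of the 2 romidepsin libraries from the control, with red circles for romidepsin and a grey square for the control. The dotted line marks the threshold of 1 FPKM that chose the members; LINC01426 has its 2 romidepsin libraries furthest apart, at 5.22 and 3.01 FPKM.

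At the other end, 21 members at 1 FPKM or more in the control were under 1 FPKM in both romidepsin libraries, and 185 were at 1 FPKM or more in all 3. The share of all genes that did so was not counted. Of the 223 members, 67 lay at 1 to 2 FPKM in the control, against 816 of all 10838 genes. More members than genes at large thus started near the threshold, and nothing is read from the 21. LINC01141, named after its values were seen, was among the 21, with 0.167 and 0.166 FPKM with romidepsin against 1.20 FPKM in the control.

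Some members differed as much between the 2 treated libraries as others did from the control. A difference of more than 0.5 on the log2 scale between the romidepsin libraries was found for 16 of the 269 members (5.95%) and for 73 of all 11708 genes tested (0.624%). The 269 include the 46 that entered through a romidepsin library, 16 of these through only 1, so a wide pair is partly fixed by the rule. Of all genes tested, 870 were under 1 FPKM in the control. The widest was CDC37L1-AS1, with 1.31 and 5.17 FPKM with romidepsin against 1.504 FPKM in the control. LINC01461 had 0.126 and 1.42 FPKM with romidepsin against 0.188 FPKM in the control, and ZEB2-AS1 had 0.701 and 1.69 FPKM with romidepsin against 1.83 FPKM in the control. In these 3 one romidepsin library lay near the control and the other did not. The pooled SD of the pair was 0.26 for members and 0.14 for all genes tested, beside a median control level of 2.53 FPKM for members and 12.3 FPKM for all genes. Among genes at 1 FPKM or more in the control, the SD was 0.22 for members and 0.10 for all genes.

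Long noncoding RNAs outside the symbol rule were read from a list of 48 chosen with earlier results known. Of the 19 with their own row and 1 FPKM or more in the control, 4 rose, 13 fell and 2 were not called by limma, with a median difference of -0.45. Of all genes, 45.2% were called lower at 1 FPKM or more in the control and 65.9% at 20 FPKM or more, so nothing particular to the list is read from its falls or from those of the SNHG hosts in it. MALAT1, an abundant RNA of nuclear speckles, rose to 45.6 and 48.6 FPKM with romidepsin against 35.1 FPKM in the control, and NEAT1, the scaffold of paraspeckles, to 8.60 and 8.88 FPKM with romidepsin against 4.55 FPKM in the control. GAS5, a host of small nucleolar RNAs, fell to 458 and 435 FPKM with romidepsin against 675 FPKM in the control. GAS5-AS1, named after its values were seen, fell as well, to 8.53 and 9.15 FPKM with romidepsin against 16.9 FPKM in the control. Of the 8 numbered SNHG hosts tested, 7 fell, while with quantile normalization 5 were called lower and SNHG5 was called higher. The last of them, SNHG11, was not called and had 5.23 and 3.95 FPKM with romidepsin against 4.12 FPKM in the control.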

How the data were processed

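The authors deposited a table of gene names and FPKM values for each library, per the file headers. The submitters' processing notes list TopHat, Cufflinks, Cuffdiff and the build hg19, without versions, settings, strand or annotation. Rows without a name (21.1% to 22.3% of summed FPKM) or named by a number were left out, and rows of the same symbol were summed. The members and lists were chosen with earlier results of these data known.

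Differences are romidepsin minus control on log2(FPKM + 1), a scale that understates changes of low genes. Genes with 1 FPKM in at least 1 library were fitted with limma 3.58.1 (R 4.3.3; lmFit, eBayes with a trend, Benjamini-Hochberg, threshold 0.05). The spread comes from the romidepsin pair, and the lone control is assumed to vary like it. The fit was tested on simulated data, with the control drawn with the spread of the romidepsin pair. That run cannot test the assumption about the lone control. Sense partners were matched by symbol; GENCODE 29 (GRCh38) gave arrangement, lengths and neighbours, and RefSeq GRCh38.p14 names and promoters, with no coordinates carried over to hg19. Depth was read from the FPKM taken to be that of 1 fragment, within a preset window and with annotated transcript lengths. That the values in the window stand for 1 fragment was not tested.

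Named members were the 10 most abundant, the 12 largest rises and falls by the smaller of both libraries' differences, the 10 such under 1 FPKM in the control, the fixed lists, those at the threshold, the 10 largest antisense differences with a partner and up to 10 opposite pairs; others are said to be named after their values were seen.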

Additional observations from a re-analysis of the deposited data

How the results depend on the processing

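No paired analysis was possible because the control is a single library whose label carries no replicate number. The 98 falls stayed within 1.5 times that count under each alternative run (70 to 122). The 35 rises became 58 with equal sums and 23 with no filter on low values. The median difference (-0.19) was -0.0501 with equal sums, -0.34 with quantile normalization, -0.25 and -0.22 with pseudocounts of 0.1 and 0.5, -0.16 with a filter on the mean, -0.29 for members at 2 FPKM or more in the control, and -0.19 to -0.17 without one romidepsin library. The 2-fold rises (3) and falls (13) were 8 and 6 with equal sums, 8 and 35 with a pseudocount of 0.1, 7 and 21 with 0.5, and 5 to 6 and 17 to 19 without one romidepsin library; the falls were 25 with quantile normalization. Pairs with the same direction (81 of 127) were 25 of 47 without shared exon bases, an alternative chosen after seeing the data, and 76 to 82 without one romidepsin library. Direction turned for FGD5-AS1 (0.18 with equal sums, 0.0696 with quantile normalization), LINC00998 (0.0775 and 0.0302), OTUD6B-AS1 (0.23 and 0.12), LINC00152 (0.0485 with equal sums), THUMPD3-AS1 (0.20 with equal sums) and RNF144A-AS1 (-0.29 with quantile normalization). With no filter, 12 named members lost their call. The cause was not tested. Leaving out 1 romidepsin library turned the sign of OTUD6B-AS1 and THUMPD3-AS1 (0.0189 and 0.0289), which were not called, and of no other named member. A single control and a median of about 71.6 fragments per member limit what small differences can show.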
